A study of Homo sapiens with 16 samples.

Results

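Transcript levels were followed for 7 genes known from the naive state of human pluripotency and from the stem cell enzyme stain. They were the transcription factor genes KLF4, KLF5, TFCP2L1 and TBX3 and the alkaline phosphatase genes ALPG, ALPP and ALPL. They were chosen by symbol and not by a cut on a measured value, though with earlier results of these data known. All 7 were found among the 60675 identifiers of the count table. All 7 also passed the filter on low counts, which kept 19772 genes.

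The cells were H9, an established human embryonic stem cell line that here carried a Rex1-EGFP reporter, grown without feeder cells on Matrigel in mTeSR1, a medium that keeps stem cells in the primed state. Every library came from cells transfected with a pool of siRNAs at 30 to 50 nM. The pools targeted SALL4 or VRTN and were harvested at 48 h, or targeted DSCC1 or SEPHS1 and were harvested at 72 h, with 3 biological replicates each. As controls, 2 libraries received esiRNA to Renilla luciferase (the Luciferase group) and 2 received a control siRNA (the Control group), at an hour that the labels do not give. The SALL4, DSCC1, SEPHS1 and luciferase siRNAs were made by enzymatic digestion (esiRNA), while the VRTN pool came from another maker. No library was from untransfected cells, all came from 1 cell line, and siRNA lowers a transcript without removing the gene.

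KLF4 and KLF5 are zinc finger factors that bind CACCC-type and GC-rich elements and, with the CP2 factor TFCP2L1 and the T-box factor TBX3, belong to the network that holds naive pluripotency, where LIF and STAT3 signalling drives several of them in mouse cells. In human primed cells that network is largely silent. Alkaline phosphatase activity is the classical stain of undifferentiated stem cells, and humans carry a tissue-nonspecific gene, ALPL, and a cluster of tissue-restricted genes that includes the placental gene ALPP and the placental-like, or germ cell, gene ALPG.

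Levels are TMM-normalised counts-per-million values (CPM) and effects are log2 fold changes with their standard error (SE). Tests were edgeR's quasi-likelihood tests, with p values adjusted by Benjamini and Hochberg's method over the 19772 genes. A gene was called at an adjusted p under 0.05. Library totals ran from 18597262 to 28662389 counts, so that 3 counts, the floor used here, stood for 0.105 to 0.161 CPM before TMM scaling. In RNA from whole cultures, fewer cells of a type and less RNA per cell cannot be told apart. The targeted transcripts stood at 77.9% of the control mean for SALL4, 14.9% for VRTN, 20.5% for DSCC1, which was not called (edgeR adjusted p = 0.417), and 14.9% for SEPHS1, each with no overlap between groups.

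Libraries of the 48 h knockdowns and of the controls fell into 2 sets that the labels do not explain. The first component of the deviations from the group means held 29.1% of their variance and set Luciferase 1, Control 1, SALL4 1 and 2 and VRTN 1 and 2 on one side. Luciferase 2, Control 2, SALL4 3 and VRTN 3 were on the other. GBX2, a homeobox gene chosen here after its values were seen, read 15.7 to 39.6 CPM in the 6 libraries of the first set and 0.480 to 2.04 CPM in the 4 of the second, against 0.139 to 1.42 CPM in the 6 libraries of the 72 h knockdowns. Values within each set are given beside the results below, and the first set is called the GBX2-high set.

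The label of naive-state genes describes where these genes are known from, not the state of these cells. Of 28 other genes of naive pluripotency, 16 passed the filter, 14 had a median count under 10, and 7 had no count in any library, namely KLF17, ARGFX, KHDC1L, KHDC3L, HORMAD1, TRIM60 and ZFP42, the gene of REX1. The 0 of ZFP42 stands in a line that carries a Rex1-EGFP reporter, and whether the count row is affected by the annotation was not tested, so that nothing is read from it here. All 16 markers of primed and core stem cells passed the filter, and their summed level was 6975 to 7884 CPM in the controls, 5775 to 5849 in SALL4, 7360 to 8091 in VRTN, 7151 to 7196 in DSCC1 and 7242 to 7442 in SEPHS1. The SALL4 libraries thus lay below every control. Of 20 trophoblast markers, 9 passed the filter, 13 had a median count under 10 and 6 were at 0 in every library, namely ELF5, VGLL1, CGA, CYP19A1, XAGE2 and ENDOU. Their summed level was 7.95 to 14.6 CPM in the controls, 6.43 to 17.99 in SALL4, 6.54 to 12.1 in VRTN, 7.91 to 14.0 in DSCC1 and 8.61 to 15.8 in SEPHS1.

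Per kilobase of exon, the 7 genes covered a wide range in the 4 control libraries. ALPL led with 142 CPM per kb, followed by ALPG with 8.66, KLF4 with 1.52, ALPP with 0.707, KLF5 with 0.633, TFCP2L1 with 0.297 and TBX3 with 0.0897. In that order only ALPP (0.401 to 1.05 CPM per kb) and KLF5 (0.406 to 0.812) were neighbours whose control libraries overlapped. The tissue-nonspecific phosphatase was therefore the member read most, with 6455 to 14169 counts per library, and TBX3 the member read least.

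TBX3 was the one member near the count floor, with a median of 6.5 counts over the 16 libraries and 3 counts or fewer in 6 of them. The lowest counts of the other members were 1 for ALPP, 9 for TFCP2L1, 13 for KLF5, 78 for KLF4 and 93 for ALPG. ALPP was at or under 3 counts in 2 libraries, both of VRTN siRNA, and the remaining 5 members were above 3 counts everywhere.

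**Figure D1:**
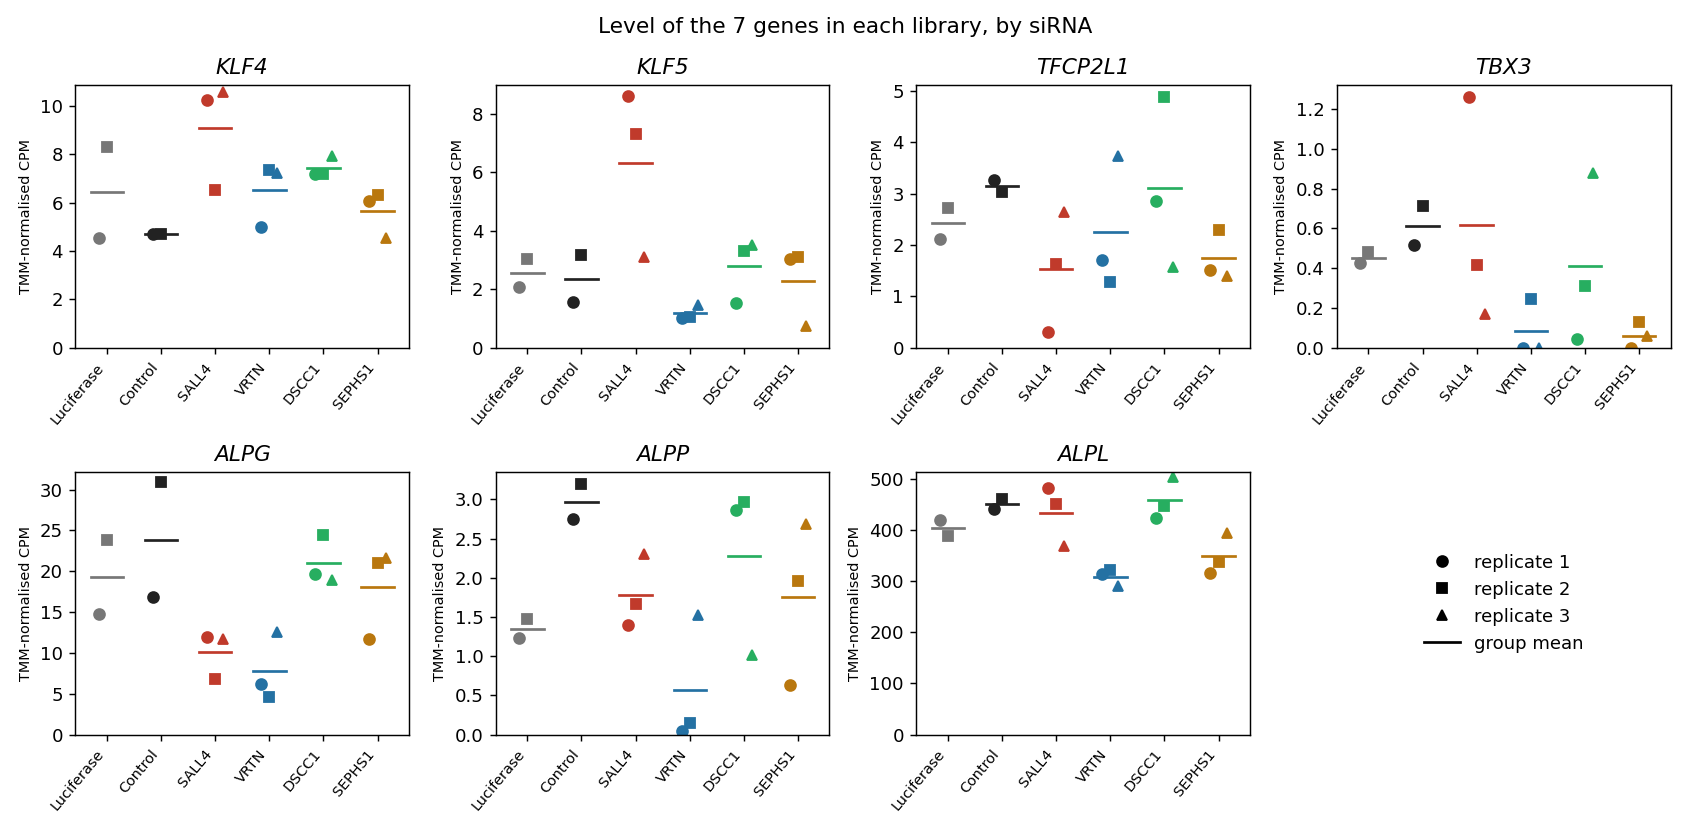
Level of each gene in TMM-normalised CPM (vertical axis, linear, a scale for each gene) in the 16 libraries by siRNA (horizontal axis), with the replicate number as the marker shape and the group mean as a line. The 3 VRTN libraries lie below all 4 controls for ALPL and ALPG, while KLF5 is high in SALL4 replicates 1 and 2 only.

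Among the transcription factors, KLF5 differed between the knockdowns of SALL4 and VRTN. KLF5 (ENSG00000102554, chromosome 13, 73054976 to 73077542, plus strand, GRCh38) encodes a zinc finger factor of stem cells and epithelia. It stood at 2.08 and 3.04 CPM in the Luciferase libraries and at 1.58 and 3.16 CPM in the Control libraries. The SALL4 libraries read 8.60, 7.30 and 3.11 CPM, and the VRTN libraries 1.02, 1.04 and 1.48 CPM. SALL4 replicates 1 and 2 were above every other library, SALL4 replicate 3 lay inside the control range, and all 3 VRTN libraries lay below all 4 controls.

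The 48 h knockdowns share no library, but their siRNA sources differed, so target and source cannot be told apart between them. Their direct comparison called KLF5 higher with SALL4 than with VRTN siRNA. Its mean was 6.34 ± 2.87 CPM (SD, n = 3) against 1.18 ± 0.260 (n = 3), a log2 fold change of 2.42 (SE 0.63, 95% interval 1.02 to 3.83, edgeR adjusted p = 0.0205). The call was lost without SALL4 replicate 1 (edgeR adjusted p = 0.178), SALL4 replicate 2 (0.104), VRTN replicate 1 (0.102) or VRTN replicate 2 (0.0974). With a term for the 2 sets of libraries, drawn from these same counts and fitted without the 72 h libraries, the effect stood at 2.47 (edgeR adjusted p = 0.00188). Such a term takes up spread within the groups, so its smaller p is not further support. Of the 7 genes, 2 were called higher in this comparison, KLF5 and ALPL, where 1.8% of all genes tested were called higher and 2.63% in either direction.

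Against the controls neither effect on KLF5 was called. SALL4 siRNA gave a log2 fold change of 1.36 (SE 0.55, edgeR adjusted p = 0.226) and VRTN siRNA one of -1.06 (SE 0.58, edgeR adjusted p = 0.574). Within the GBX2-high set the SALL4 libraries stood at a log2 ratio of 2.12 to the controls of that set, and in the other set at 0.00. The VRTN ratios in the same sets were -0.83 and -1.07. Only limma-voom with quality weights called the SALL4 effect, at 1.497 (adjusted p = 0.0322). In the 72 h knockdowns KLF5 read 1.53, 3.32 and 3.52 CPM with DSCC1 siRNA and 3.03, 3.11 and 0.759 CPM with SEPHS1 siRNA, with both groups across the control range.

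KLF4 (ENSG00000136826, chromosome 9, 107484852 to 107490482, minus strand), a reprogramming factor and relative of KLF5, was not called in any knockdown. It read 4.53 and 8.31 CPM with Luciferase, 4.71 and 4.69 with Control, 10.2, 6.51 and 10.6 with SALL4 and 5.01, 7.33 and 7.23 with VRTN siRNA. With DSCC1 siRNA it read 7.17, 7.19 and 7.91 CPM, and with SEPHS1 siRNA 6.07, 6.31 and 4.55 CPM. SALL4 replicates 1 and 3 were the highest of the 16 libraries, but Luciferase replicate 2 was above SALL4 replicate 2, so the groups overlapped.

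The mean of KLF4 was 9.10 ± 2.25 CPM (SD, n = 3) with SALL4 siRNA against 5.56 ± 1.84 (n = 4) in the controls, a log2 fold change of 0.73 (SE 0.33, 95% interval -0.01 to 1.46, edgeR adjusted p = 0.311). The ratio was 0.86 in the GBX2-high set and 0.70 in the other. DSCC1 and SEPHS1 libraries did not overlap for KLF4, with a log2 fold change of 0.39 (SE 0.36, edgeR adjusted p = 0.776) for DSCC1 over SEPHS1, where 14% of all genes did not overlap.

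TFCP2L1 (ENSG00000115112, chromosome 2, 121216587 to 121285207, minus strand), a CP2 factor downstream of LIF and STAT3 in mouse naive cells, varied widely within groups and was not called. It read 2.12 and 2.72 CPM with Luciferase, 3.26 and 3.03 with Control, 0.306, 1.63 and 2.64 with SALL4 and 1.71, 1.29 and 3.74 with VRTN siRNA. The DSCC1 libraries read 2.87, 4.89 and 1.57 CPM and the SEPHS1 libraries 1.52, 2.30 and 1.40 CPM. SALL4 replicate 1, with 9 counts, was the lowest library, and every knockdown group overlapped the controls.

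The log2 fold changes of TFCP2L1 were -0.86 (SE 0.68) with SALL4, -0.29 (SE 0.66) with VRTN, 0.17 (SE 0.66) with DSCC1 and -0.66 (SE 0.67) with SEPHS1 siRNA, and the smallest edgeR adjusted p was 0.668. Each 95% interval reached past a 2-fold change, the one for SALL4 running from -2.36 to 0.65. Within the sets, the SALL4 ratio was -1.48 in the GBX2-high set and -0.12 in the other, and the VRTN ratio -0.84 and 0.38.

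TBX3 (ENSG00000135111, chromosome 12, 114670254 to 114684164, minus strand), a T-box repressor of development and of naive cells, is given in counts because it lay near the floor. It had 9 and 12 counts with Luciferase, 15 and 21 with Control, 37, 11 and 4 with SALL4 and 0, 5 and 0 with VRTN siRNA. The DSCC1 libraries had 1, 8 and 19 counts and the SEPHS1 libraries 0, 3 and 1. The VRTN and SEPHS1 libraries all lay below the 4 controls, whereas SALL4 and DSCC1 libraries lay on both sides.

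Summed over libraries and scaled to library size, TBX3 with VRTN siRNA was 0.133 of the control level (5 against 57 counts, 95% interval 0.0416 to 0.329). With SEPHS1 siRNA it was 0.120 of it (4 against 57 counts, 0.0317 to 0.326). These exact intervals cover counting error only. Neither was called, with log2 fold changes of -2.63 (SE 2.22, edgeR adjusted p = 0.792) and -2.97 (SE 2.26, 0.618).

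Among the phosphatases, both genes that fell did so with VRTN siRNA. ALPL (ENSG00000162551, chromosome 1, 21509372 to 21578412, plus strand) encodes the tissue-nonspecific enzyme, which also serves bone mineralisation. It read 419 and 388 CPM with Luciferase, 442 and 460 with Control, and 313, 322 and 290 CPM with VRTN siRNA. The 3 VRTN libraries lay below every control, and of the remaining libraries only 2 with SEPHS1 siRNA, at 316 and 338 CPM, came near them.

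ALPL fell to 308 ± 16.4 CPM (SD, n = 3) with VRTN siRNA from 427 ± 31.1 (n = 4), 72.2% of the control mean. The log2 fold change was -0.47 (SE 0.10, 95% interval -0.68 to -0.26, edgeR adjusted p = 0.00253), and the ratio was -0.44 in the GBX2-high set and -0.55 in the other. The call was lost against Luciferase alone (-0.39, edgeR adjusted p = 0.117). Of the 7 genes, 2 were called lower with VRTN siRNA, ALPL and ALPG, where 0.738% of all genes tested were called lower and 1.2% in either direction. The median log2 fold change of the 7 was -1.06, against 0.02 over all genes.

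SALL4 siRNA left ALPL at 482, 450 and 369 CPM, on both sides of the controls. Its log2 fold change was 0.02 (SE 0.09, 95% interval -0.19 to 0.23, edgeR adjusted p = 0.993). ALPL was higher with SALL4 than with VRTN siRNA, which had the same hour but another siRNA source. The log2 fold change was 0.49 (SE 0.10, 95% interval 0.27 to 0.72, edgeR adjusted p = 0.00169), with no overlap between the groups, where 16.2% of all genes did not overlap.

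At 72 h ALPL read 424, 446 and 503 CPM with DSCC1 and 316, 338 and 394 CPM with SEPHS1 siRNA. The 2 groups did not overlap, and SEPHS1 replicate 3 was above the lowest control. The log2 fold change was 0.10 (SE 0.09, edgeR adjusted p = 0.981) for DSCC1 against the controls, -0.29 (SE 0.10, edgeR adjusted p = 0.120) for SEPHS1 against the controls, and 0.39 (SE 0.10, edgeR adjusted p = 0.0623) for DSCC1 over SEPHS1. The last was called without SEPHS1 replicate 3 (edgeR adjusted p = 0.0317) and with no filter on low counts (0.0411), and stood at 0.27 with GC content and length levelled (0.325).

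The level of ALPL moved with a property of the whole library. The mean deviation of GC-rich genes less that of GC-poor genes was -0.24, -0.25 and -0.06 (log2) in the VRTN libraries, -0.30, -0.12 and 0.00 in the SEPHS1 libraries and -0.01 to 0.06 in the controls. It was 0.33, 0.06 and -0.01 in the SALL4 libraries and 0.07, 0.09 and 0.30 in the DSCC1 libraries. Over the 16 libraries, which share that measure among all their genes, the Pearson r of a gene's log2 level with it was 0.87 for ALPL, 0.74 for TBX3, 0.54 for ALPP, 0.52 for KLF5, 0.42 for ALPG, 0.31 for KLF4 and -0.21 for TFCP2L1.

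The ALPL transcript is 59.6% G and C and the ALPG transcript 62.5%. With GC content and length levelled, an alternative added after the data were seen, ALPL with VRTN siRNA stood at -0.36 (edgeR adjusted p = 0.0153) and ALPG at -1.35 (0.0138). ALPL in SALL4 over VRTN stood at 0.38 (edgeR adjusted p = 0.0108), KLF5 there at 2.47 (0.0173), and ALPL with SEPHS1 siRNA at -0.19 (0.365). The calls on ALPL, ALPG and KLF5 were thus kept, and the ALPL effects were smaller.

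**Figure D2:**
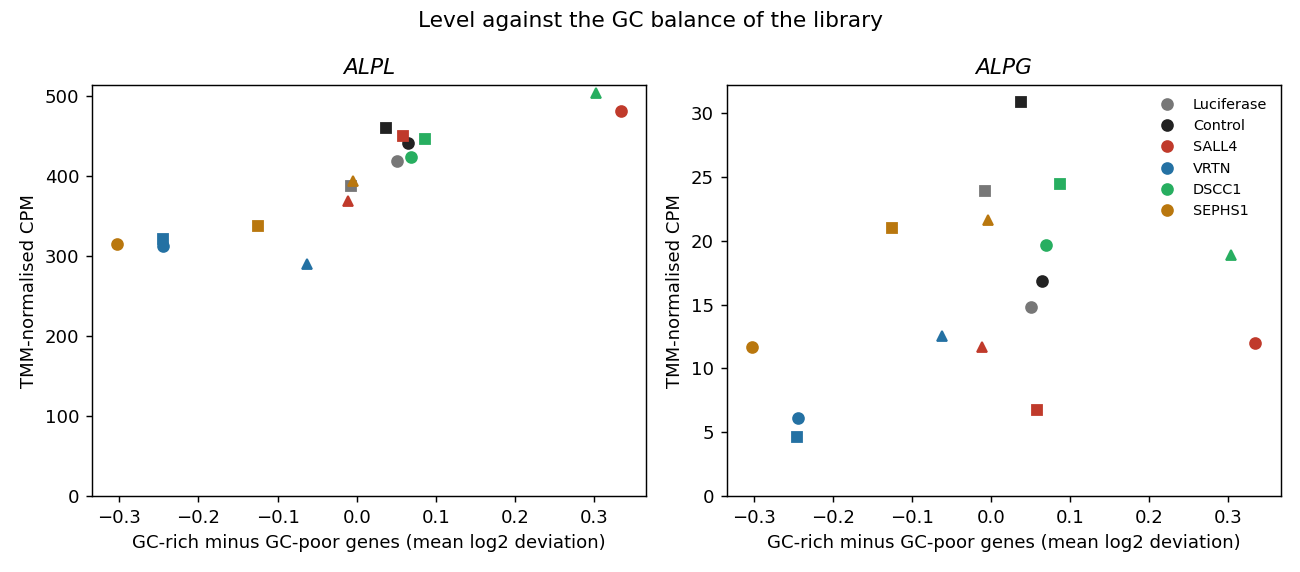
TMM-normalised CPM of ALPL (left) and ALPG (right) on linear axes against the mean log2 deviation of GC-rich less GC-poor genes in each of the 16 libraries, coloured by siRNA, with circle, square and triangle for replicates 1, 2 and 3. ALPL rises along the axis (r = 0.87) more closely than ALPG does (r = 0.42).

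ALPG and ALPP lie near each other on chromosome 2 and are copies of similar sequence. ALPG (ENSG00000163286, 232406843 to 232410714, plus strand) begins 23953 bases after the end of ALPP (ENSG00000163283, 232378534 to 232382889, plus strand). Over 2472 aligned bases their longest transcripts were 91.6% identical, against 66.5% for ALPG and ALPL. Of the 80-base stretches of the ALPG transcript, 19.4% also occurred in ALPP, and 16.2% of those of ALPP occurred in ALPG, while the other 5 genes had none shared with another gene. Reads were 80 bases long and the treatment of reads that match both copies is not given in the sources used here, so the split of counts between ALPG and ALPP is uncertain. ALPP also overlaps an unnamed gene on the minus strand, ENSG00000224516, and the strand setting of the counting is not given either.

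The RefSeq promoter windows of the copies were also alike, and that of ALPG is shown because the 2 genes varied together over the libraries. In the windows of 250 bases before to 50 after the RefSeq start (GRCh38.p14), 254 of 293 aligned bases were identical. GENCODE places the start of ALPP at 232378534, inside its window (232378501 to 232378800). By GENCODE, most of the ALPP window thus lies within the ALPP gene, and likeness of the 2 promoters is not shown. The stretch of 249 bases before the ALPG start, chr2:232406594-232406842 on the plus strand, reads 5′ to 3′ as follows, with capitals for the 34 bases that did not match the aligned ALPP window.
ALPG: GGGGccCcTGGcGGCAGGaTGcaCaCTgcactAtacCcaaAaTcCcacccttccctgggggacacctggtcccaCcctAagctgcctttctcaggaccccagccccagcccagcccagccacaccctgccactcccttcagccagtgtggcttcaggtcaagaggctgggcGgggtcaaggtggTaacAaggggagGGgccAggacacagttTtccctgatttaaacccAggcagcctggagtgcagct

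The first 50 bases hold 24 of these 34 capitals, and the remaining stretch, nearer the start, holds 10. CACCC, the core of the element that KLF factors bind, was searched on both strands and occurred 3 times in each of the ALPG and ALPP windows. It was present in 59.9% of the 35116 RefSeq promoter windows of that length. GGGCGG, the GC box, occurred once in the ALPG window and not in that of ALPP, and was present in 44.95% of all windows. RefSeq windows matched 6 of the 7 genes, all but TBX3.

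ALPG fell with VRTN siRNA and stood lower with SALL4 siRNA without passing the test. It read 14.8 and 23.9 CPM with Luciferase, 16.8 and 30.9 with Control, 6.15, 4.61 and 12.6 with VRTN and 12.0, 6.77 and 11.7 with SALL4 siRNA. All 6 libraries of these knockdowns lay below all 4 controls. At 72 h ALPG read 19.7, 24.4 and 18.9 CPM with DSCC1 and 11.7, 21.0 and 21.6 CPM with SEPHS1 siRNA, with 1 SEPHS1 library below the control range.

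With VRTN siRNA ALPG averaged 7.78 ± 4.22 CPM (SD, n = 3) against 21.6 ± 7.30 (n = 4), 36.0% of the control mean. The log2 fold change was -1.46 (SE 0.32, 95% interval -2.18 to -0.74, edgeR adjusted p = 0.0160), and the ratio was -1.56 in the GBX2-high set and -1.12 in the other. The call was lost without VRTN replicate 1 (edgeR adjusted p = 0.138) or VRTN replicate 2 (0.0911), against Luciferase alone (0.134), against replicate 1 of the controls (-1.02, 0.213) and with only the groups compared in the fit (0.104). With a term for the 2 sets of libraries, drawn from these same counts and so not further support, the effect stood at -1.39 (edgeR adjusted p = 0.000205).

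With SALL4 siRNA ALPG averaged 10.1 ± 2.92 CPM (SD, n = 3), 46.9% of the control mean, a log2 fold change of -1.08 (SE 0.32, 95% interval -1.79 to -0.38, edgeR adjusted p = 0.0590). DESeq2 called it (adjusted p = 0.0393), as did limma-voom (0.0152) and edgeR without robust estimation (0.0390) or with GC content and length levelled (-1.12, 0.0279). With a term for the 2 sets of libraries, drawn from these same counts and so not further support, it stood at -0.88 (edgeR adjusted p = 0.0208). It was also called without Luciferase replicate 1 (edgeR adjusted p = 0.0140) or Control replicate 1 (0.0120), and against replicate 2 of the controls (-1.42, 0.0034). The ratio was -0.76 in the GBX2-high set and -1.23 in the other. By edgeR 0 of the 7 genes were called with SALL4 siRNA and 3 had an unadjusted p under 0.05, while DESeq2 called 1 and limma-voom 2. These 3, ALPG, KLF5 and KLF4, ranked 706, 1492 and 2039 of 19772 genes by edgeR's p. The share of all genes under that unadjusted p is not given here, so counts of genes under it have no background in this text. Over all genes edgeR called 3.31% at an adjusted p under 0.05, and 13.6% did not overlap. The 2 knockdowns themselves did not differ for ALPG beyond their spread, at 0.38 for SALL4 over VRTN (SE 0.34, 95% interval -0.37 to 1.13, edgeR adjusted p = 0.744).

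ALPP, the placental enzyme gene, was read little and was lowest in 2 of the VRTN libraries. It read 1.23 and 1.48 CPM with Luciferase, 2.75 and 3.20 with Control, 1.39, 1.67 and 2.30 with SALL4 and 0.041, 0.149 and 1.52 with VRTN siRNA. The VRTN values stand for 1, 3 and 37 counts, and VRTN replicate 3 lay inside the control range. At 72 h it read 2.87, 2.97 and 1.02 CPM with DSCC1 and 0.636, 1.96 and 2.69 CPM with SEPHS1 siRNA, with 1 library of each group below the control range.

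The log2 fold change of ALPP with VRTN siRNA was -1.80 (SE 0.89, 95% interval -3.79 to 0.20, edgeR adjusted p = 0.522). The ratio was -4.39 in the GBX2-high set and -0.62 in the other, so that its size rests on VRTN replicates 1 and 2. Against VRTN, SALL4 siRNA stood higher by 1.63 (SE 0.93, edgeR adjusted p = 0.472), which was called without VRTN replicate 3 (4.201, edgeR adjusted p = 0.0465).

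The share of ALPP in the counts of ALPP and ALPG together was taken as deposited, with the split of reads between the copies uncertain as said above. It was 7.65% and 5.84% with Luciferase, 14.0% and 9.38% with Control, 10.4%, 19.7% and 16.5% with SALL4 and 0.658%, 3.12% and 10.8% with VRTN siRNA. The first VRTN share was 1 of 152 counts (95% Wilson interval 0.116 to 3.63%) and the second 3 of 96 (1.07 to 8.79%). VRTN replicates 1 and 2 were below every other library, the DSCC1 and SEPHS1 libraries included (5.12 to 12.7%), and VRTN replicate 3 was inside the range of the controls.

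**Figure D3:**
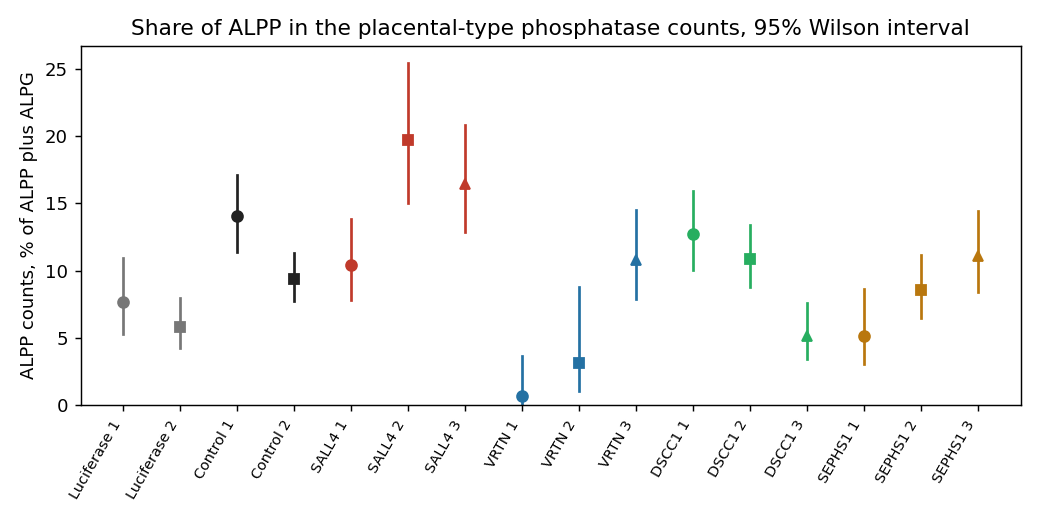
ALPP counts as a percentage of the ALPP and ALPG counts (vertical axis, linear) in each of the 16 libraries (horizontal axis), with 95% Wilson intervals that cover counting error only. VRTN replicates 1 and 2 have the lowest shares and SALL4 replicate 2 the highest, at 19.7%.

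ALPL held most of the phosphatase counts in every library. It gave 93.1 to 98.5% of the counts of the 3 genes, and ALPG 1.41 to 6.25%. ALPI, the intestinal member of the same cluster, had no count in any library. Placental-type transcripts were thus a small part of the phosphatase RNA here, and the values per kilobase give the same order.

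The 72 h knockdowns called none of the 7 genes. With DSCC1 siRNA edgeR called 0 of 7, 0 had an unadjusted p under 0.05, and DESeq2 and limma-voom called 0, where edgeR called 0.121% of all genes. There 0 of the 7 were without overlap with the controls, as 9.1% of all genes were. With SEPHS1 siRNA edgeR called 0 of 7, 1 (ALPL) had an unadjusted p under 0.05, and DESeq2 and limma-voom called 0. By edgeR's p ALPL ranked 615 of 19772 genes there, and 1.57% of all genes were called at an adjusted p under 0.05. Only TBX3 was without overlap there, as 13% of all genes were. Between DSCC1 and SEPHS1 siRNA edgeR called 0 of 7, 1 (ALPL) had an unadjusted p under 0.05, and DESeq2 and limma-voom called 0. By edgeR's p ALPL ranked 101 of 19772 genes there, and 0.425% of all genes were called at an adjusted p under 0.05.

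With VRTN siRNA, 4 of the 7 genes did not overlap the controls, all lower, namely ALPL, ALPG, KLF5 and TBX3, as 12% of all genes did. All 4 knockdowns were set against the same 4 control libraries, so their effects are not independent of each other. The labels give no hour for the controls, and the source of the siRNA differed for VRTN, so target, hour and siRNA source cannot be told apart in those comparisons. In SALL4 over VRTN the hour is shared, but target and siRNA source cannot be told apart there either.

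**Figure D4:**
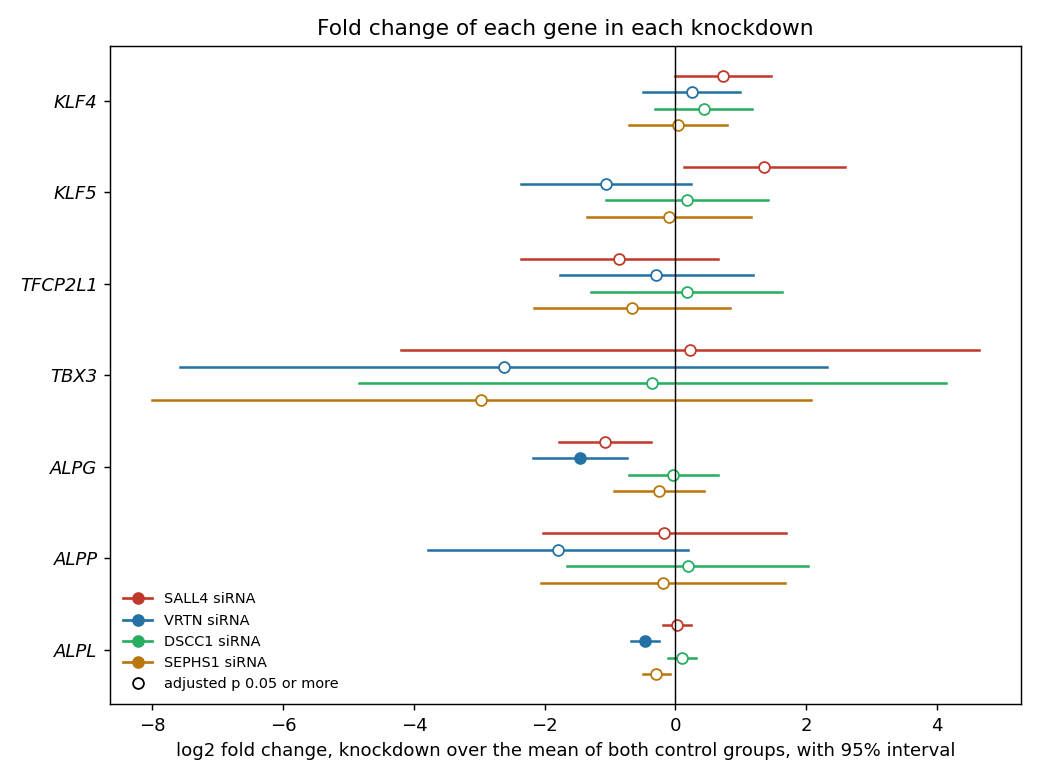
Log2 fold change of each gene in each knockdown over the mean of both control groups (horizontal axis), with 95% intervals from edgeR's quasi-likelihood fit, and a filled marker where the adjusted p is under 0.05. Only ALPG and ALPL with VRTN siRNA are filled, and the intervals of TBX3 span more than 8 log2 units.

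Relatives of the 4 factors were taken as whole families, with the members themselves counted in each. Of 27 KLF and SP genes, 23 passed the filter, and with SALL4 siRNA 1 was higher and 2 lower, where 3.31% of all genes were called. KLF7, known from neurons and fat cells, rose to 56.2 ± 5.37 CPM (n = 3) from 37.1 ± 5.33 (n = 4, log2 fold change 0.60, SE 0.17, edgeR adjusted p = 0.0299). KLF10, a TGF-beta early response gene, fell to 34.3 ± 3.32 CPM from 54.8 ± 3.91 (-0.67, SE 0.16, edgeR adjusted p = 0.00579), and KLF11, its close relative, to 8.56 ± 3.06 CPM from 16.05 ± 2.62 (-0.90, SE 0.27, edgeR adjusted p = 0.0445). With SEPHS1 siRNA SP6, a factor of tooth and skin, fell to 1.28 ± 0.538 CPM from 6.03 ± 1.19 (-2.23, SE 0.52, edgeR adjusted p = 0.0122). The family's median log2 fold change was 0.02, 0.05, -0.06 and -0.11 with SALL4, VRTN, DSCC1 and SEPHS1 siRNA, against 0.02, 0.02, 0.00 and -0.02 over all genes.

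The T-box family held 1 called gene with SALL4 and 1 with SEPHS1 siRNA, where 3.31% and 1.57% of all genes were called. Of 17 T-box genes 12 passed the filter, with MGA, a MAX partner, lower with SALL4 siRNA at 16.4 ± 4.43 CPM against 27.9 ± 7.85 (-0.76, SE 0.21, edgeR adjusted p = 0.0328). TBX1, a factor of the pharynx and heart, was lower with SEPHS1 siRNA at 0.471 ± 0.669 CPM against 3.08 ± 0.182 (-2.65, SE 0.70, edgeR adjusted p = 0.0391). With SALL4 siRNA limma-voom called 4 of the 12 and DESeq2 1. The median log2 fold change of the 12 was 1.24, 0.11, -0.26 and -0.19 with SALL4, VRTN, DSCC1 and SEPHS1 siRNA, in a family where 10 of the 17 genes had a median count under 10.

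Of the 6 CP2 and grainyhead genes, whose median stood at -0.44, -0.24, 0.15 and -0.54 in the same order, edgeR called 0 in each knockdown. With SALL4 siRNA 2 of them had an unadjusted p under 0.05, limma-voom called 1 and DESeq2 0, and with VRTN, DSCC1 and SEPHS1 siRNA all 3 of these counts were 0.

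In the LIF and STAT3 pathway, all 15 listed genes passed the filter, TFCP2L1 and KLF4 among them. With SALL4 siRNA LIF, the cytokine itself, rose to 14.2 ± 4.27 CPM (n = 3) from 5.87 ± 1.38 (n = 4, log2 fold change 1.30, SE 0.33, edgeR adjusted p = 0.0157). Its libraries read 17.99, 15.1 and 9.58 CPM against 4.16 to 7.49 in the controls, without overlap. With VRTN siRNA SOCS3, a STAT3 target and inhibitor of the pathway, fell to 12.2 ± 0.174 CPM from 22.0 ± 4.35 (-0.84, SE 0.21, edgeR adjusted p = 0.0231). With DSCC1 and SEPHS1 siRNA edgeR, DESeq2 and limma-voom called 0 of the 15, and 2 and 1 of them had an unadjusted p under 0.05.

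Of the 16 other naive pluripotency genes that passed the filter, 1 was higher and 1 lower with SALL4 siRNA, and 1 higher and 2 lower with VRTN siRNA. Over all genes edgeR called 3.31% and 1.2% there. NODAL, a TGF-beta family ligand, rose with SALL4 siRNA to 18.2 ± 2.78 CPM from 7.30 ± 1.69 (1.32, SE 0.30, edgeR adjusted p = 0.00476). PRDM14, a zinc finger repressor of lineage genes, fell there to 56.0 ± 6.42 CPM from 120 ± 8.75 (-1.10, SE 0.12, edgeR adjusted p = 2.88e-09). With VRTN siRNA DPPA4, a chromatin protein of pluripotent cells, rose to 393 ± 10.8 CPM from 301 ± 18.6 (0.38, SE 0.09, edgeR adjusted p = 0.0148), and SOX15, a relative of SOX2, fell to 18.5 ± 3.67 CPM from 33.0 ± 3.16 (-0.83, SE 0.18, edgeR adjusted p = 0.00393). TFAP2C, a factor of naive, germ and trophoblast cells, fell to 6.88 ± 3.11 CPM from 14.0 ± 2.83 (-1.004, SE 0.26, edgeR adjusted p = 0.0338). The median log2 fold change of the 16 was 0.61, 0.39, -0.03 and 0.22 with SALL4, VRTN, DSCC1 and SEPHS1 siRNA. The listed genes summed to 588 to 627 CPM in the controls, 530 to 655 with SALL4 and 678 to 746 with VRTN siRNA. With DSCC1 siRNA the sum was 556 to 582 CPM, and with SEPHS1 siRNA 648 to 663. The sum thus did not fall with VRTN siRNA. DPPA4 alone held 301 CPM of it in the controls and 393 CPM with VRTN siRNA. Of the genes called there 2 were lower, and 14 of the 28 listed genes had a median count under 10, so the sum does not describe the list as a whole.

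Genes of phosphate handling other than the members were not called against the controls. Of the 10 listed genes, 8 passed the filter, 2 were lower with VRTN siRNA, and these were ALPG and ALPL. The median of the 8 with VRTN siRNA was -0.36, against 0.02 over all genes. The 8 include ALPG, ALPP and ALPL themselves, so this median is no separate measure of the other listed genes.

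Of the 16 markers of primed and core stem cells, edgeR called 5 lower and 1 higher with SALL4 siRNA, where 3.31% of all genes were called. DNMT3B, a DNA methyltransferase, fell to 459 ± 124 CPM from 1137 ± 169 (-1.31, SE 0.14, edgeR adjusted p = 8.47e-05). PODXL, a cell surface sialomucin, fell by 0.48 on the log2 scale (edgeR adjusted p = 0.0210), CD24 by 0.68 (0.0310), the NODAL coreceptor gene TDGF1 by 0.42 (0.0347) and the targeted SALL4 by 0.36 (0.0257), while the surface protein gene THY1 rose by 0.41 (0.0179). With VRTN siRNA DUSP6 and ZIC2 were higher (1.17 and 0.50) and UTF1 lower (-1.20, edgeR adjusted p = 6.72e-07). LIN28A was the 1 marker called with DSCC1 (0.36) and with SEPHS1 siRNA (0.32), higher in both. The part of these marker changes in the values of ALPG, KLF5 and KLF4 with SALL4 siRNA was not tested.

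Markers of other cells that carry these enzymes were measured alongside. Of the 9 trophoblast markers that passed the filter, KRT7, a simple epithelial keratin, was lower with SALL4 siRNA at 0.955 ± 0.805 CPM against 4.18 ± 0.735 (-2.13, SE 0.60, edgeR adjusted p = 0.0326). Of 11 germ cell markers 7 passed the filter, and DDX4 and SYCP3 were at 0 in every library. PRDM1, a repressor needed by germ cells, was higher with SALL4 siRNA at 5.50 ± 3.03 CPM against 0.495 ± 0.409 (3.48, SE 1.01, edgeR adjusted p = 0.0416). ITGA6, an integrin subunit, was lower with SALL4 (-0.78, edgeR adjusted p = 0.00911) and VRTN siRNA (-0.82, 0.0113). The summed germ cell markers read 28.0 to 33.1 CPM with VRTN siRNA, 42.8 to 59.7 with SALL4 siRNA and 48.3 to 58.3 in the controls. Most of the gap with VRTN siRNA came from ITGA6, at a mean of 18.2 CPM against 32.2, and from TFAP2C, given above. The median log2 fold change of the 7 tested markers was 0.72 with VRTN and 1.87 with SALL4 siRNA, opposite in sign to the effects on ALPG. These medians come from a list where 6 of the 11 genes had a median count under 10. The sum was thus below the controls together with ALPG and ALPL under VRTN siRNA, and across the control range under SALL4 siRNA, and its part in those results was not tested.

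Of 12 osteoblast and mesenchyme markers, 6 passed the filter and IBSP was at 0 in every library. Their summed level was 1619 to 1894 CPM in the controls, 574 to 948 with VRTN and 606 to 1423 with SALL4 siRNA, most of it from COL1A1, a collagen gene of bone and fibroblasts, at 1534 to 1759, 493 to 808 and 479 to 1250 CPM. COL1A1 was singled out after its values were seen and was not called with VRTN siRNA (-1.28, SE 0.28, edgeR adjusted p = 0.0690). Like ALPG, it read below every control in all 6 SALL4 and VRTN libraries, and its part in the ALPL and ALPG results was not tested. With VRTN siRNA edgeR called 0 of the 6, 1 had an unadjusted p under 0.05, and DESeq2 and limma-voom called 1 each. With SALL4 siRNA edgeR also called 0 of the 6, 4 had an unadjusted p under 0.05, DESeq2 called 1 and limma-voom 3.

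Over the 16 libraries, which mix conditions and share depth and the measures above, the members went together in part. The highest Pearson r between 2 of them was 0.81 for TBX3 and ALPL, with TBX3 near the floor, then 0.77 for ALPG and ALPP, whose counts can cross over, and 0.60 for KLF5 and TBX3. KLF4 and TFCP2L1 stood at -0.25. Among 9810 genes of at least 2 log2 CPM, those most like ALPL included PLXNB2 (r = 0.89) and CLUH (0.89). The genes most like ALPG were FHOD1 (0.92), BCL9L (0.90) and STMN3 (0.89), and those most like ALPP were DGKZP1 (0.83), IL17RC (0.82) and VASN (0.81).

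The factor genes had other companions. The genes most like KLF5 included GAS7 (r = 0.88) and FXYD7 (0.85), and KLF4 was most like FAM157C (0.81), WASHC1 (0.78) and FHIP2B (0.77). TFCP2L1 was most like NDUFV2P1 (0.87), AHSA1 (0.83) and TXLNG (0.83), and TBX3 most like PLEC (0.90), FBRSL1 (0.88) and DDR1 (0.87). No gene was among the nearest 3 of more than 1 member.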

How the data were processed

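Polyadenylated RNA of 16 libraries was made into Lexogen SENSE libraries and sequenced on an Illumina NextSeq in single reads of 80 bp, per the labels' protocols. The deposited table holds whole-number raw counts per Ensembl gene, which per the submitters' processing notes the authors made with STAR 2.4.0.1, HTSeq 0.9.1 and GRCh38. Annotation release, strand setting and treatment of multi-mapping reads are not given in the sources used here. A gene name table gave symbols for 56558 of 60675 identifiers, and positions came from GENCODE release 29 (GRCh38). Promoter sequence is RefSeq's, GRCh38.p14.

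In R 4.3.3, genes were filtered with filterByExpr, scaled by TMM and tested with edgeR 4.0.16 (robust quasi-likelihood) in 1 fit over 6 groups, without a replicate block. Benjamini-Hochberg adjustment ran over 19772 genes, with calls at an adjusted p under 0.05. The SE divides the log2 fold change by the square root of F, and 95% intervals use the 10 residual degrees of freedom. The contrast of a knockdown took the average of the 2 control groups. The pipeline was tested on simulated data. Alternatives were other scalings and filters, DESeq2 1.42.0, limma-voom (limma 3.58.1), a replicate block, other control sets and each library left out. Added after the data were seen were a fit without robust estimation, one with GC content and length levelled and one with a term for the 2 sets of libraries. That last fit left out the libraries of the 72 h knockdowns. Its term was drawn from the spread within groups of these same counts, so smaller p values from it are not further support.

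The design text calls the replicates biological, and nothing says which shared a day or culture. Members, gene lists and tests were chosen with earlier results of these data known. Genes are named by rule: all 7 members, up to 4 genes per list called in a knockdown by smallest p, and the 3 genes most correlated with each member, of which some are not reported here. Other genes named were chosen after their values were seen. The exact and Wilson intervals and the floors cover counting error only, and reads carry no molecular identifiers. The edgeR intervals include the spread between replicates.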

Additional observations from a re-analysis of the deposited data

Results flagged for a closer look

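KLF4 in the 4 control libraries had 1 value far from the rest, Luciferase replicate 2 at 8.31 CPM against 4.53, 4.69 and 4.71 CPM, with a gap of 0.954 of the group's range. Chance alone sets such a sample apart in about 1 of 20 groups.

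The SALL4 and VRTN knockdowns differed from each other for KLF5, by a log2 fold change of 2.42 (SE 0.63, edgeR adjusted p = 0.0205, with 3 of 3 SALL4 libraries above 3 of 3 VRTN libraries). They also differed for ALPL, by 0.49 (SE 0.10, edgeR adjusted p = 0.00169, again 3 of 3 above 3 of 3). Target and siRNA source cannot be told apart in these differences.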

How the results depend on the processing

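Of 814 recomputed effects on single members, 748 kept direction and side of the threshold, 41 turned direction, 15 gained a call and 10 lost one. None of the 41 was called, and the largest main log2 fold change among them was 0.57 in size. The cause was not tested. TBX3 with SALL4 siRNA stood at -0.062 by limma-voom and -0.39 with a term for the 2 sets of libraries. Against Luciferase alone ALPP stood at 0.40 with SALL4 and 0.38 with SEPHS1 siRNA, ALPG at 0.12 with DSCC1 and KLF4 at -0.19 with SEPHS1 siRNA. Against Control alone ALPL stood at -0.056 with SALL4 siRNA, and TFCP2L1 at -0.015 and ALPP at -0.38 with DSCC1 siRNA. Against replicate 1 of the controls ALPG stood at 0.41 with DSCC1 and 0.20 with SEPHS1 siRNA and KLF5 at 0.35 with SEPHS1 siRNA. Against replicate 2 of the controls KLF5 stood at -0.15 with DSCC1 and KLF4 at -0.14 with SEPHS1 siRNA. limma-voom put ALPG with DSCC1 siRNA at 0.021. With 1 library left out, effects with SALL4 siRNA ran from -0.83 to 0.68 for TBX3 and -0.059 to 0.14 for ALPL. With DSCC1 siRNA they ran from -0.028 to 0.47 for KLF5, -0.31 to 0.49 for TFCP2L1, -1.52 to 0.17 for TBX3, -0.22 to 0.22 for ALPG and -0.047 to 0.54 for ALPP. With SEPHS1 siRNA they ran from -0.15 to 0.29 for KLF4, -0.35 to 0.32 for KLF5, -0.43 to 0.0034 for ALPG and -0.62 to 0.21 for ALPP. SALL4 over VRTN ran from -1.21 to 0.016 for TFCP2L1, and DSCC1 over SEPHS1 from -0.14 to 0.56 for KLF5, -0.021 to 0.35 for ALPG and -0.022 to 0.80 for ALPP.

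Of the 7 genes, 0 were called with SALL4 siRNA, but 1 (ALPG) without a filter, by DESeq2, against replicate 2 of the controls, without robust estimation, with GC content and length levelled and with the term for the sets, and 2 by limma-voom. With VRTN siRNA 2 were called, but 1 with only the groups compared or against replicate 1 of the controls and 0 against Luciferase alone. For DSCC1 over SEPHS1 1 was called without a filter. With 1 library left out, 0 to 1 were called with SALL4 siRNA, 1 to 2 with VRTN siRNA, 1 to 3 for SALL4 over VRTN and 0 to 1 for DSCC1 over SEPHS1.

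Over all genes, 655 were called with SALL4 siRNA, but 1291 by limma-voom, 411 with only the groups compared, 255 against Luciferase alone, 282 against Control alone and 275 against replicate 1 of the controls. With VRTN siRNA 237 were called, but 399 without a filter, 392 by DESeq2, 123 against Luciferase alone, 105 against Control alone, 130 against replicate 1 of the controls and 533 with the term for the sets. With DSCC1 siRNA 24 were called, but 49 without a filter, 15 with a stricter one, 52 by DESeq2, 41 by limma-voom, 64 with only the groups compared, 6 against Luciferase alone, 2 against Control alone, 3 against replicate 2 of the controls and 9 without robust estimation. With SEPHS1 siRNA 310 were called, but 484 without a filter, 533 by DESeq2, 158 by limma-voom, 136 against Luciferase alone, 109 against Control alone and 108 against replicate 2 of the controls. SALL4 over VRTN gave 520, but 897 by limma-voom, 239 with only the groups compared and 917 with the term for the sets. DSCC1 over SEPHS1 gave 84, but 152 without a filter, 188 by DESeq2, 24 by limma-voom, 53 without robust estimation and 47 with GC content and length levelled. With 1 library left out these counts ran from 296 to 1010, 146 to 222, 3 to 25, 154 to 328, 252 to 921 and 29 to 82.

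The replicate numbers did not pair the libraries across all groups. Of 36 same-numbered pairs 9 correlated above 0.1 (range -0.32 to 0.36), and 7 of 16 libraries correlated best with their own number. Same-numbered libraries correlated more between some groups than between others. Luciferase and Control correlated at 0.34, which with 2 libraries per group is necessarily the same for both numbers and is counted for each above. SALL4 and VRTN correlated at 0.03, 0.13 and 0.36, and DSCC1 and SEPHS1 at 0.06, 0.01 and 0.16. A pairing within those groups alone was not tested. With the replicate block ALPG was called with SALL4 siRNA (-1.18, edgeR adjusted p = 0.0122), so that 1 of the 7 genes was called there. With the block ALPL was called in DSCC1 over SEPHS1 (0.39, edgeR adjusted p = 0.0483), which made 1 there, KLF5 with SEPHS1 siRNA stood at 0.0097, and 14 genes were called with DSCC1 siRNA.

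Low depth limits TBX3 most, then ALPP and TFCP2L1. Where an alternative left a control group with 1 library, that library was assumed to vary like the other groups.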
